A study of Mus musculus with 4 samples.

Results

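Genes of the skeletal muscle sarcomere and of the myogenic programme were followed in RNA-seq libraries of embryonic mouse ovaries. The set holds 34 genes of the 34682 listed in the count table. It was chosen by name, as a readout of muscle tissue that may be carried along when a gonad is dissected, and it was chosen with the counts of these libraries known. The differences between libraries given for its members are therefore descriptions and support nothing by themselves. Of the 34 genes, 27 passed the filter on low counts and were among the 15442 genes tested between genotypes. Myh2, Myh8, Tnni2, Ckm, Myf5, Myf6 and Chrng did not pass.

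The study asked what extra Sall1 does in the embryonic ovary, and it compared mutant ovaries that overexpress Sall1 with wild-type (wt) ovaries at E13.5, a day in midgestation. Each genotype had 2 libraries, numbered replicate 1 and replicate 2. In the mutant, the Sall1 coding sequence was placed under regulatory elements of Wt1 on a bacterial artificial chromosome and integrated with the piggyBac transposon into female embryonic stem cells, which were aggregated with morulae, so the transgene is driven in cells where those elements are active. The wild-type ovaries carried no transgene, and the sources do not agree on their origin. They name littermates in one place and CD1 animals in another, while the wild-type column names carry the tag B6. For the mutant, the paper derived the stem cells from B6 mice, and it also names a hybrid background for its transgenic experiments. The mutant column names do not carry the B6 tag. The genotypes may therefore differ in strain as well as in the transgene, and this was not tested. No age other than E13.5 and no treatment was given for either genotype. Neither the labels nor the methods say how many ovaries or animals went into a library, nor whether replicates came from separate litters, so p-values measure only the spread between these libraries.

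Skeletal muscle fibres contract through sarcomeres, in which myosin thick filaments pull on actin thin filaments when calcium reaches the troponin complex. Muscle progenitors are committed by the basic helix-loop-helix factors Myf5 and Myod1 and differentiate under Myog, and the fibres of the embryo use embryonic and fetal isoforms that later give way to adult ones. The ovary itself has no sarcomeres, and skeletal muscle is not one of its tissues.

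The libraries held 11036313 and 14893508 counts for mutant replicates 1 and 2, and 17214470 and 17869840 counts for wild-type replicates 1 and 2. At these depths a count of 0 allows up to 3 counts, or 0.170 to 0.272 CPM (counts per 1000000 of the library), and such limits cover counting error only. Sall1 was listed with 1243 and 1445 counts in the mutant libraries and with 279 and 223 in the wild-type libraries, which goes with the labels. None of the 7 ovarian somatic marker genes and none of the 6 germ cell marker genes was at 0 in any library. Wild-type replicate 1 stood apart from the other libraries in the muscle genes, so results that rest on it are given with and without it. Muscle cells in the sample and muscle RNA per cell cannot be told apart in bulk libraries: a lower level can be fewer cells or less RNA in each.

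The sequences before the start sites of 5 members are shown because these genes span the behaviours described below: Myog is the factor of differentiation, Myh3, Actc1 and Acta1 differed most between the replicate 1 libraries in CPM, and Tnni1 was nearly level in all 4. Each is the 250 bases before a RefSeq gene start on GRCm38.p6, read 5′ to 3′ on the gene's strand, at chr1:134289754-134290003 (plus strand) for Myog, chr11:67078050-67078299 (plus) for Myh3, chr2:114052876-114053125 (minus) for Actc1, chr8:123894776-123895025 (minus) for Acta1 and chr1:135799171-135799420 (plus) for the first of 2 records of Tnni1. Capitals mark E-boxes (CANNTG, the letters that basic helix-loop-helix factors bind) and CArG boxes (the site of serum response factor).
Myog: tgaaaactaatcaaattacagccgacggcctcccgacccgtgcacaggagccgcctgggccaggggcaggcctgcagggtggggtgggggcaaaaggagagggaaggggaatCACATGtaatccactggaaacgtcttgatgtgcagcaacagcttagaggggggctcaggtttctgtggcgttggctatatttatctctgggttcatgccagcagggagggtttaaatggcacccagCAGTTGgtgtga
Myh3: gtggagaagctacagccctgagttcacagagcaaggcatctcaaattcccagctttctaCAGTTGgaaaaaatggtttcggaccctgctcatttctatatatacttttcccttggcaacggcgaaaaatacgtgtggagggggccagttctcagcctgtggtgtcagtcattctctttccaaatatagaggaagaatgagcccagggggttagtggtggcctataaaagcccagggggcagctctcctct
Actc1: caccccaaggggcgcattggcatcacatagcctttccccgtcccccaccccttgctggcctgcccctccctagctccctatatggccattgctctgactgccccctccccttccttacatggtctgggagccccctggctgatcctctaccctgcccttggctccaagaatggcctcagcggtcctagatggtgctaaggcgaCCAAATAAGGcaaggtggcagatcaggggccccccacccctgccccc
Acta1: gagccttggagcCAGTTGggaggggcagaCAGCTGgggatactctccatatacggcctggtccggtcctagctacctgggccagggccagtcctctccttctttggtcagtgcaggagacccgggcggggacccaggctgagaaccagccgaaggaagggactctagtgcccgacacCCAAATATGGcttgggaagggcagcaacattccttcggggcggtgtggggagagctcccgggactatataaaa
Tnni1: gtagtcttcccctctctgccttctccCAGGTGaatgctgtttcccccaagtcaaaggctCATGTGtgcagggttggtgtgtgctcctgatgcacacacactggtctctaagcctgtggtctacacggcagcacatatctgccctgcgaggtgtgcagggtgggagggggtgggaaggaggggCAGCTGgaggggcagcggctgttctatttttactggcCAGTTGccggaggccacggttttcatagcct

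Promoter records were found for 29 of the 34 members, 32 records in all. An E-box in the letters CANNTG, searched on both strands, lay in 26 of the 32 records, or 81.2%, and in 66.2% of all 32851 records of the same length. The form CAGCTG, which is a case of CANNTG, lay in 15 of the 32, or 46.9%, against 13.0% of all records. A CArG box lay in 3 of the 32, or 9.38%, against 1.47%, in Acta1, Actc1 and Myh4. A MEF2 site was searched as YTAWWWWTAR, where Y is C or T, W is A or T and R is A or G. It lay in 6 of the 32, or 18.8%, against 2.92%, in Casq2, Klhl41, Myh1, Myh4, Myh8 and Ttn. Near matches were not counted, such as ctatatttat in the Myog window, which differs in its last base. The Actc1 window above held no E-box, and the Tnni1 window held 4. These letters describe the windows and are not shown to be bound.

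Summed over the 34 genes, muscle transcripts made up 508 CPM in wild-type replicate 1, 211 CPM in mutant replicate 1, 143 CPM in wild-type replicate 2 and 140 CPM in mutant replicate 2. Most of the level outside wild-type replicate 1 came from Tnni1 and Tnnt1, the slow skeletal isoforms of troponin I and troponin T. The pair held 20.4% of the members' counts in wild-type replicate 1, 50.8% in mutant replicate 1, 65.2% in wild-type replicate 2 and 73.4% in mutant replicate 2. Without the pair, the other 32 genes summed to 405, 104, 49.7 and 37.3 CPM in the same order. Wild-type replicate 1 was then the highest library by a wide margin, mutant replicate 1 came next, and the replicate 2 libraries of both genotypes lay lowest and near each other. Counts below are given in this order throughout: wild-type replicate 1, mutant replicate 1, wild-type replicate 2, mutant replicate 2.

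**Figure D1:**
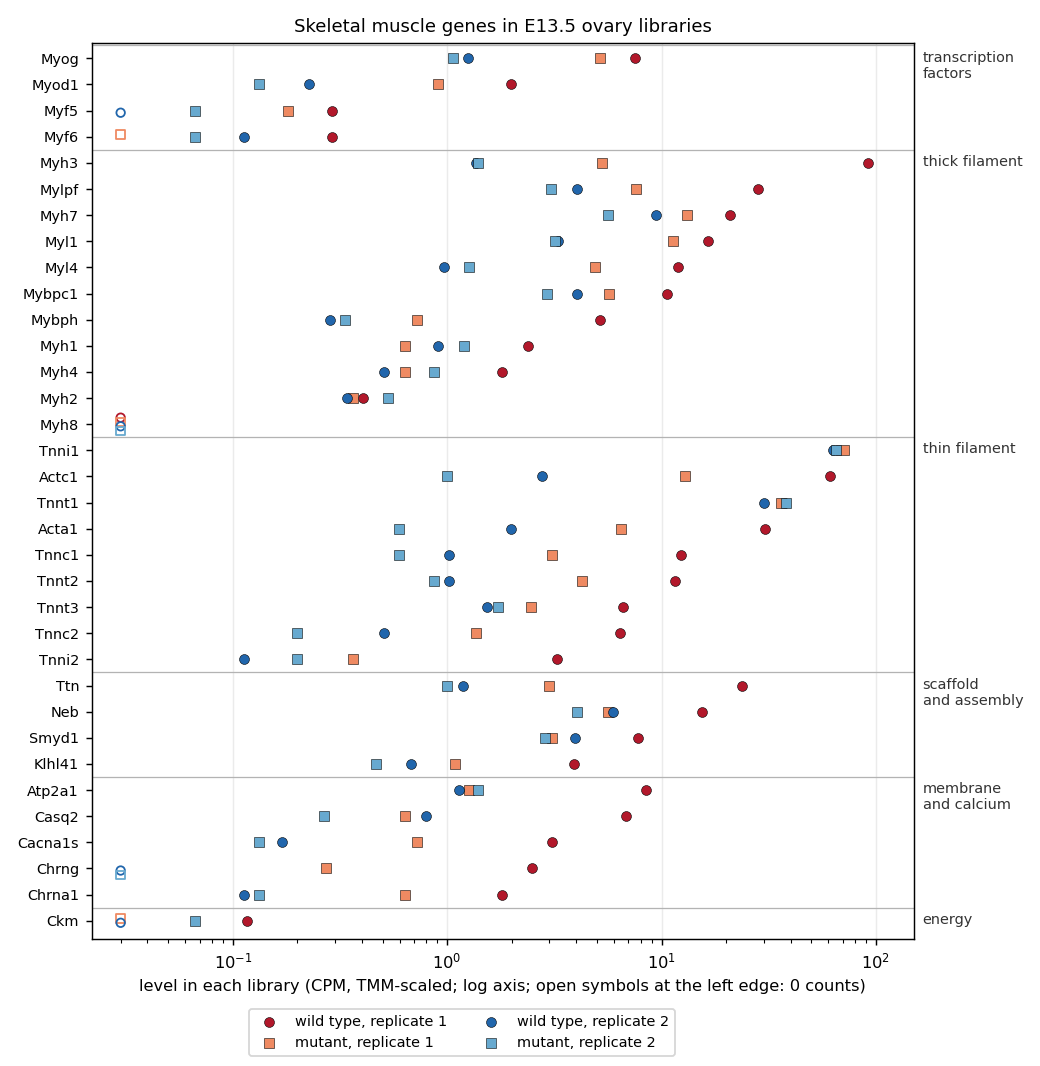
Level of each of the 34 muscle genes (rows, grouped by role) in each library, in CPM on a log axis; circles are wild-type and squares mutant libraries, warm colours replicate 1 and cool colours replicate 2, and open symbols at the left edge stand for 0 counts. Wild-type replicate 1 lies furthest right for 30 of the 34 genes, while the 4 points of Tnni1 nearly coincide.

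Among the myogenic transcription factors, Myog, which drives the differentiation of myoblasts, had 129, 57, 22 and 16 counts. Myod1, the factor that can turn other cells into muscle, had 34, 10, 4 and 2. Both replicate 1 libraries lay above both replicate 2 libraries for these genes. Myf5 and Myf6 had 0 to 5 counts per library, at or near the limit of detection, and their libraries cannot be ordered. Myog was 1.45-fold higher in wild-type than in mutant replicate 1, and the replicate 1 to replicate 2 differences were 6.01-fold in wild type and 4.86-fold in the mutant.

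In the thick filament, Myh3, the embryonic myosin heavy chain and the member with the widest range, had 1577, 58, 24 and 21 counts. Wild-type replicate 1 exceeded mutant replicate 1 by 17.4-fold and wild-type replicate 2 by 67.4-fold, and the replicate 2 libraries overlapped at 1.36 and 1.40 CPM for wild type and mutant. Over the genotypes this gave 46.5 ± 63.8 CPM in wild type and 3.33 ± 2.73 CPM in the mutant (SD, n = 2 each), so the spread in wild type was larger than the difference of the means. The myosin light chains had the same highest library. Mylpf, the fast regulatory light chain, had 483, 84, 71 and 46 counts. Myl1, the fast essential light chain, had 283, 125, 58 and 48. Myl4, the atrial and embryonic light chain, had 206, 54, 17 and 19. For Myl4 the mutant was the lower library of replicate 1 and the higher of replicate 2.

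The thick filament's accessory proteins followed with fewer counts. Mybpc1, the slow myosin-binding protein C, had 182, 63, 71 and 44 counts. Mybph, a smaller relative of that protein, had 89, 8, 5 and 5. Mybpc1 was well above the floor in every library, whereas Mybph was found mostly in wild-type replicate 1.

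The other myosin heavy chains varied less than Myh3. Myh7, the slow and cardiac heavy chain, had 358, 145, 167 and 85 counts, a range far narrower than that of Myh3, and its mutant library was the lower one in both replicates. Myh1, a fast adult isoform, had 41, 7, 16 and 18 counts. Myh4, the fastest adult isoform, had 31, 7, 9 and 13. For Myh1 and Myh4 the mutant library lay below wild type in replicate 1 and above it in replicate 2. Myh2 had 4 to 8 counts per library and Myh8, the perinatal isoform, had 0 in all 4. The values of Myh1, Myh2, Myh4, Myh7 and Myh8 are uncertain, since between 18.9% and 26.9% of the 50-base windows of their transcripts also occur in another gene's transcript, in the case of Myh7 that of Myh6, while for the other members this share was at most 4.81%.

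The thin filament held the most abundant member of each wild-type library by length. Actc1, cardiac actin and the main actin of embryonic muscle, had 1055, 142, 49 and 15 counts. Acta1, the skeletal actin that later replaces it, had 523, 71, 35 and 9. Both actins had the order of libraries used here, with 22.1-fold and 15.3-fold between the wild-type libraries and 12.9-fold and 10.8-fold between the mutant libraries. Their levels were 32.0 ± 41.4 CPM in wild type against 6.94 ± 8.41 CPM in the mutant for Actc1, and 16.2 ± 20.1 against 3.52 ± 4.13 CPM for Acta1 (SD, n = 2 each), so within each genotype the SD was larger than the mean.

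Troponin, the calcium sensor of the thin filament, split into isoforms that were level and isoforms that were not. Tnni1 had 1134, 782, 1118 and 979 counts, which is 65.9, 71.0, 63.4 and 65.1 CPM. Tnnt1 had 649, 398, 528 and 571 counts, or 37.7, 36.1, 29.9 and 38.0 CPM. Neither differed much between any libraries, with 68.0 ± 4.16 CPM in the mutant against 64.6 ± 1.81 CPM in wild type for Tnni1 and 37.0 ± 1.30 against 33.8 ± 5.52 CPM for Tnnt1 (SD, n = 2 each). The other troponins were also highest in wild-type replicate 1. Tnnc1, Tnnt2 and Tnnc2 had the full order of the actins, Tnnt3 did not, and Tnni2 was near the floor in the remaining libraries. Tnnc1, the slow and cardiac troponin C, had 212, 34, 18 and 9 counts. Tnnt2, the cardiac troponin T that embryonic skeletal muscle also uses, had 199, 47, 18 and 13. Tnnt3, the fast troponin T, had 114, 27, 27 and 26, or 6.63, 2.45, 1.53 and 1.73 CPM, with wild-type replicate 1 above the other 3 libraries. Tnnc2, the fast troponin C, had 110, 15, 9 and 3 counts. Tnni2, the fast troponin I, had 56, 4, 2 and 3. These fast isoforms were rare outside wild-type replicate 1.

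Divided by exon length, Tnni1 led in both wild-type libraries, at 38.6 CPM per kilobase of exon in replicate 1 and 37.1 in replicate 2. In wild-type replicate 1 it was followed by Actc1 at 37.9, Mylpf at 31.7, Acta1 at 21.0, Tnnt1 at 17.3 and Myh3 at 14.9 CPM per kilobase. In wild-type replicate 2 the next were Tnnt1 at 13.7, Mylpf at 4.55, Myl1 at 1.86 and Actc1 at 1.72 CPM per kilobase. The actins thus stood close to Tnni1 in level in the first of these libraries and far below it in the other.

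Of the scaffold and assembly proteins, Ttn, the giant spring that spans the sarcomere, had 408, 33, 21 and 15 counts. Neb, nebulin, which runs along the thin filament, had 265, 62, 105 and 61. Smyd1, a methyltransferase needed for the assembly of myosin, had 133, 34, 70 and 43. Ttn was largely a transcript of wild-type replicate 1, while Neb and Smyd1 were well above the floor everywhere and lower in both mutant than in both wild-type libraries in CPM. Klhl41, which stabilises nebulin, had 67, 12, 12 and 7 counts.

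Membrane and calcium-handling genes link excitation to contraction. Atp2a1, the calcium pump of the fast sarcoplasmic reticulum, had 145, 14, 20 and 21 counts, and its 3 low libraries lay between 1.13 and 1.40 CPM. Casq2, the calcium-binding protein of the reticulum in cardiac and slow fibres, had 117, 7, 14 and 4 counts. Cacna1s, the voltage sensor of the transverse tubule, had 53, 8, 3 and 2. Chrna1, the alpha subunit of the acetylcholine receptor at the neuromuscular junction, had 31, 7, 2 and 2. Chrng, the fetal gamma subunit of that receptor, had 43, 3, 0 and 0. Both receptor subunits were at or under 3 counts in the replicate 2 libraries of either genotype. Ckm, the muscle creatine kinase of mature fibres, had 0 to 2 counts per library, so no level can be given.

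Within replicate 1, the muscle genes were lower in the mutant library, with a median log2 ratio of mutant to wild type of -1.43 over the 27 members that passed the filter, beside -0.00027 over all genes tested. This comparison sets 1 library against 1 and has no replicate check, so only counting intervals are available (95%, from the exact binomial distribution, for counting error only). The ratio was negative for 26 of the 27. It was at least 2-fold lower for 21, where 2.07% of all genes tested were, and at least 2-fold higher for 0, where 1.68% were. The interval lay wholly below equality for 25 members, against 13.6% of all genes, and wholly above it for 0, against 13.6%. Since members were chosen with this difference known, nothing is read from these counts.

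The size of the replicate 1 difference varied among members by more than counting error. Myh3 had a log2 ratio of -4.09 (interval -4.53 to -3.74), the lowest of all genes tested. Casq2 at -3.18 (-4.77 to -2.33), Ttn at -2.93 (-3.54 to -2.47), Mybph at -2.63 (-4.09 to -1.79) and Atp2a1 at -2.61 (-3.64 to -1.94) came next among the members tested. The actins were less far apart, at -2.24 (-2.51 to -1.997) for Actc1 and -2.22 (-2.62 to -1.88) for Acta1. Myh7 at -0.66 (-0.95 to -0.38), Myl1 at -0.53 (-0.85 to -0.23) and Myog at -0.52 (-1.01 to -0.08) were nearer to equality, though their intervals lay below it. The intervals of Tnnt1 at -0.06 (-0.25 to 0.12) and Tnni1 at 0.11 (-0.03 to 0.24) included equality. The intervals of Myh3, Actc1 and Myl1 did not overlap one another. By role, the median log2 ratio was -2.61 for the 5 membrane and calcium genes, -1.95 for the 9 thin filament genes, -1.58 for the 4 scaffold and assembly genes, -1.27 for the 11 thick filament genes and -0.77 for the 4 transcription factors, members that did not pass the filter included.

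**Figure D2:**
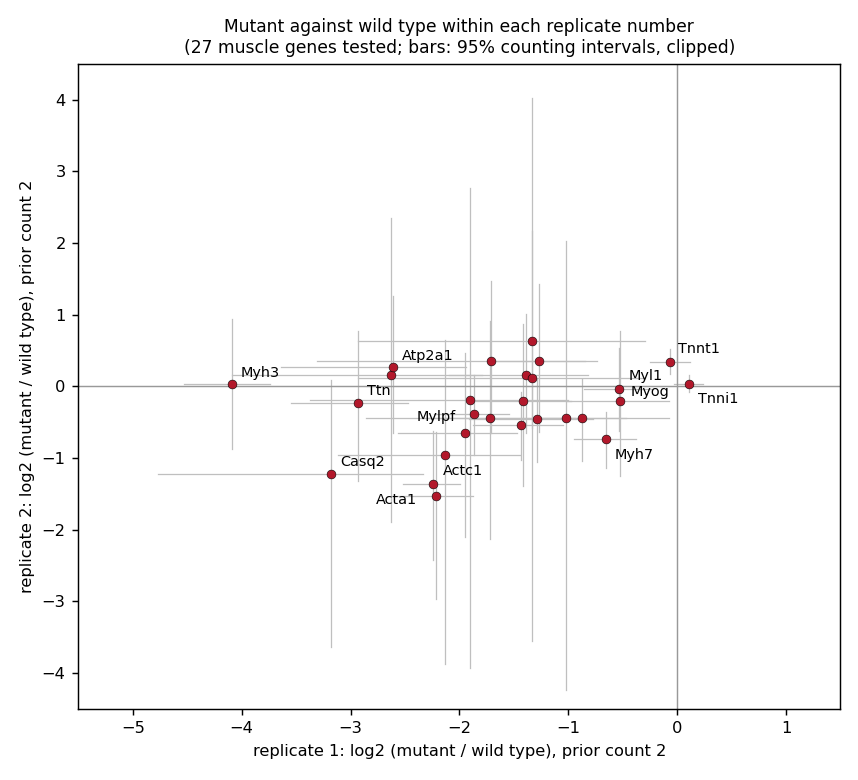
Log2 ratio of mutant to wild-type level within replicate 1 (horizontal axis) and within replicate 2 (vertical axis) for the muscle genes tested; each point is a gene, and bars are 95% counting intervals. Points spread from 0.11 to -4.09 along the replicate 1 axis, but most lie near 0 along the replicate 2 axis, with Acta1 lowest at -1.54.

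Within replicate 2 the same ratio had a median of -0.21 over the 27 members, beside -0.0042 over all genes tested. It was negative for 17 members. All 17 were also negative in replicate 1, while 9 had opposite signs in the replicates and Tnni1 was positive in both. The ratio was at least 2-fold lower for 3 members, Actc1, Acta1 and Casq2, against 2.15% of all genes tested, and at least 2-fold higher for 0, against 1.46%. The counting interval lay below equality for 4 members, Actc1, Acta1, Myh7 and Neb, or 4 of 27 where 18.7% of all genes tested had such an interval, and above it for Tnnt1 alone, where 17.7% had one. The interval share of members, 14.8%, cannot be set plainly against that of all genes. Whether an interval leaves equality also depends on counts, and many members had few in replicate 2. By fold alone, 11.1% of members were at least 2-fold lower, against 2.15% of all genes tested. Nothing is read from these shares, since the members were chosen with the counts known.

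Individual values in replicate 2 were limited by low counts. Actc1 had a log2 ratio of -1.37 (interval -2.42 to -0.62) from 15 mutant and 49 wild-type counts. Acta1 had -1.54 (-2.97 to -0.64) from 9 and 35. Casq2 had -1.22 (-3.64 to 0.09), and at 4 and 14 counts its interval reached equality. Myh7 at -0.73 (-1.14 to -0.36) and Neb at -0.54 (-1.03 to -0.08) rested on more counts. Of these 5 genes, Myh7 had the replicate 2 ratio nearest to its replicate 1 ratio. Myh3, with the lowest ratio in replicate 1, had 0.03 (-0.88 to 0.94) in replicate 2, and Ttn had -0.23 (-1.32 to 0.77). Tnnt1 had 0.34 (0.17 to 0.52), higher in the mutant.

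The muscle genes also differed between libraries of the same genotype. From replicate 1 to replicate 2 the median log2 difference of the members tested was -2.76 in wild type and -1.28 in the mutant, beside -0.00054 and -0.019 over all genes tested. The median difference between the wild-type libraries was therefore larger than the median difference between genotypes within either replicate. In wild type, replicate 2 was at least 2-fold lower for 24 of 27 members, where 2.49% of all genes tested were, and in the mutant for 16 of 27, where 3.32% were. Wild-type replicate 1 was the highest library for 25 of the 27, against 22.5% of all genes tested, and mutant replicate 1 came second to it for 19, against 10.9%. In the mutant, Actc1 and Acta1 differed most between replicates among members with at least 30 counts, and Tnni1, Tnnt1, Smyd1 and Atp2a1 least.

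Across all 4 libraries, fits with genotype as the only term called no muscle gene. Adding replicate number to the edgeR model called some muscle genes as lower in the mutant. Myh3 was one of these, although its log2 ratio within replicate 2 was 0.03. In edgeR's quasi-likelihood fit, p-values were adjusted by Benjamini-Hochberg over all 15442 genes, and 9 genes had an adjusted p under 0.05, with 0.013% of genes higher and 0.0453% lower in the mutant. Of the 27 muscle genes tested, 0 were called in either direction and 4 had an unadjusted p under 0.05, all lower in the mutant, namely Myh3, Neb, Casq2 and Smyd1. Of all 15442 genes, 422 were lower and 456 higher at that unadjusted p in edgeR. DESeq2 also called 0 of the 33 muscle genes with a count. It gave no adjusted p for Myh2, Ckm, Myf5, Myf6 and Chrna1, so these could not be called. Of the 33, 7 had an unadjusted p under 0.05, all lower. Of all 22242 genes with a count, 289 were lower and 270 higher at that unadjusted p in DESeq2. The lowest adjusted p by edgeR was 0.718, for Casq2, with a log2 fold change of -3.11 (SE 1.05). Myh3 had -3.88 (SE 1.57, adjusted p = 0.856 by edgeR), and Neb had -1.15 (SE 0.45, adjusted p = 0.844 by edgeR). The median fitted log2 fold change was -1.34 over the 27 members, of which 25 were negative, beside -0.00088 over all genes tested. An exact permutation test of 2 libraries against 2 cannot give a p below 0.333, so none is given for single genes.

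Both mutant libraries lay below both wild-type libraries for 3 of the 27 members, Casq2, Neb and Smyd1, where 15.1% of all genes tested had that order, and above them for 0, where 15.8% did. The count of members in which the genotypes did not overlap was thus no higher than the share among all genes. For the other 24 the libraries of the genotypes overlapped.

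The fitted changes rested on wild-type replicate 1. With that library left out, the median log2 fold change of the 25 members then tested was 0.53, and 4 of the 25 were lower in the mutant: Myh7 at -0.03, Neb at -0.31, Smyd1 at -0.42 and Casq2 at -0.86. Myh3 then had 1.25 and Actc1 1.28, both higher in the mutant. That fit set both mutant libraries against wild-type replicate 2 alone, so replicate 1 entered on the mutant side only. Genotype and replicate number cannot be told apart there. Within replicate 2, the log2 ratio of mutant to wild type was 0.03 for Myh3 and -1.37 for Actc1. Without mutant replicate 1 the median was -2.39 and without wild-type replicate 2 it was -2.29, and in this last fit Myh3 was called (adjusted p = 0.0115 by edgeR). In these fits the genotype left with 1 library was assumed to vary as the other did. Tnni1 stayed between 0.01 and 0.13 whichever library was left out.

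**Figure D3:**
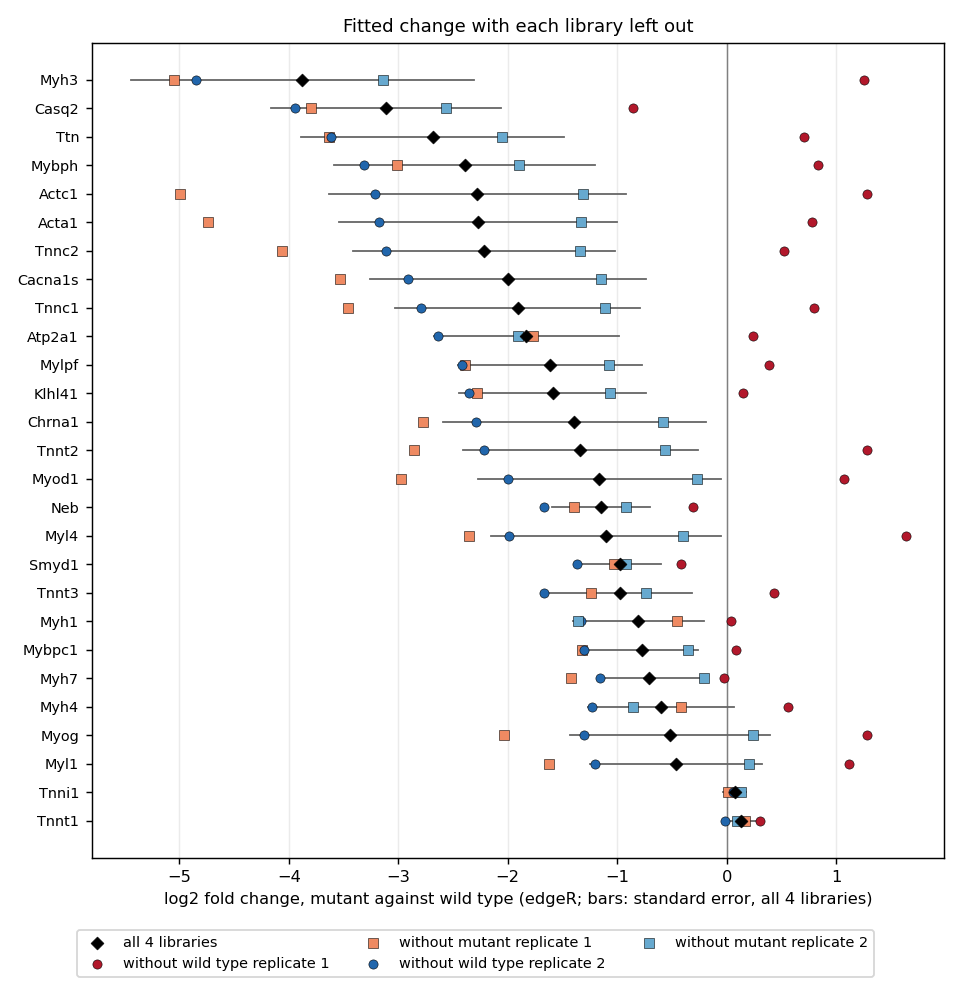
Fitted log2 fold change of each muscle gene tested, mutant against wild type, with all 4 libraries (diamonds, with SE bars) and with each library left out (circles and squares). Without wild-type replicate 1 most genes move across 0 to the right, Myh3 from -3.88 to 1.25, whereas Tnni1 and Tnnt1 stay near 0. In that fit replicate 1 is left on the mutant side only.

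A wider list held 61 other skeletal muscle genes, made of sarcomere, membrane, metabolic and myogenic genes outside the 34. In summed level and in median change it showed less of this pattern. Its summed level was 424 CPM in wild-type replicate 1, 308 in mutant replicate 1, 280 in wild-type replicate 2 and 299 in mutant replicate 2. Of its genes, 31 were tested, 0 were called, 2 had an unadjusted p under 0.05 by edgeR and 3 by DESeq2, all lower in the mutant, and the median fitted log2 fold change was -0.29. At that unadjusted p, 422 of all 15442 genes were lower by edgeR and 289 of 22242 by DESeq2. Within replicate 1, 8 of the 31 were at least 2-fold lower in the mutant, where 2.07% of all genes tested were. Within replicate 2 there were 2, where 2.15% of all genes tested were. Wild-type replicate 1 was still the highest library for 50 of the 61. Among those tested it was highest for 23 of 31, where 22.5% of all genes tested had that order. By DESeq2 the median log2 fold change was -0.74 over 60 genes of the wider list and -1.31 over the 33 muscle genes with a count. The 5 most abundant members of the wider list were far above the floor in every library. Srl, sarcalumenin of the sarcoplasmic reticulum, had 1517, 819, 1173 and 1307 counts. Ryr1, the calcium release channel, had 504, 292, 544 and 513. Tpm2, a tropomyosin that smooth muscle shares, had 704, 254, 341 and 220. Pygm, muscle glycogen phosphorylase, had 438, 250, 473 and 378, and Mef2c, a transcription factor of muscle and other tissues, had 431, 238, 373 and 246. Chosen after their values were seen, Tmem8c, the myomaker of myoblast fusion, had 59, 4, 1 and 1 counts, and Musk, the kinase of the neuromuscular junction, had 15, 0, 0 and 0.

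Markers of other tissues near the gonad were summed beside the muscle genes. Liver genes, which an ovary should lack, summed to 525 CPM in wild-type replicate 1, 108 in mutant replicate 1, 6.12 in wild-type replicate 2 and 18.1 in mutant replicate 2, and all 11 were highest in wild-type replicate 1 and second in mutant replicate 1. Afp, the fetal serum protein, had 4603, 570, 39 and 114 counts, and Alb, serum albumin, had 2832, 351, 36 and 80. The 2 libraries with the most liver RNA were thus also those with the most muscle RNA. Red blood cell genes summed to 3577, 3227, 1743 and 883 CPM and had the same 2 libraries on top.

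The other lists were summed in the same way. Smooth muscle genes summed to 203, 180, 170 and 134.8 CPM, cartilage and bone genes to 143, 185, 111 and 122 CPM, and tendon genes to 35.0, 36.9, 29.4 and 23.8 CPM. Heart muscle genes summed to 106, 177, 149 and 210 CPM, and the sum was higher in both mutant libraries. Single genes went both ways, and 0 of the 7 tested were called by edgeR. The fitted log2 fold change was negative for 3, Myh6 (-0.58), Myl7 (-0.43) and Tbx20 (-1.01). It was positive for Tnni3 (1.03), Mybpc3 (1.35), Ryr2 (0.66) and Hcn4 (0.29). Of the list's markers, Nppa, Myl2 and Nkx2-5 had 0 to 5 counts per library. Tnni3 had 114 to 226, Myl7 52 to 110 and Myh6 33 to 111. Mybpc3, another gene of the list, had 21 to 52. These genes were chosen after their values were seen. Most of the heart sum came from Ryr2, a calcium release channel, with 1383, 1589, 2222 and 2724 counts. Muscle progenitor genes summed to 9.88, 11.3, 7.42 and 8.04 CPM, nearly level against the sarcomere genes. Neuronal genes summed to 28.1, 23.95, 19.3 and 13.7 CPM, gut epithelium to 28.9, 20.9, 21.5 and 18.01, epidermis to 17.4, 44.9, 15.9 and 12.4, adrenal cortex to 15.8, 18.1, 17.1 and 15.0, and nephric duct and tubule to 28.8, 34.9, 28.9 and 42.4 CPM. Smooth muscle and neurons had the same order of libraries as the muscle genes, and the other lists in this paragraph did not. The ovary's own somatic markers summed to 1307, 1387, 1251 and 1199 CPM and the germ cell markers to 1463, 1394, 1586 and 1615 CPM, both within a narrow range. The part of other tissues in the muscle genes' differences was not tested.

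**Figure D4:**
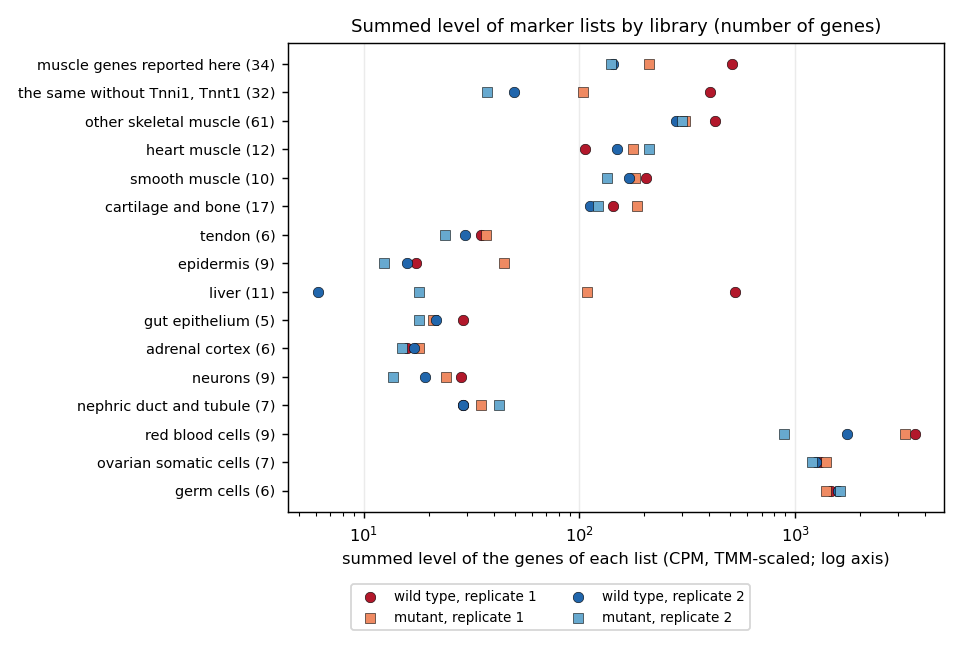
Summed level of each gene list in each library, in CPM on a log axis, with circles for wild type, squares for mutant, warm colours for replicate 1 and cool colours for replicate 2. The muscle genes without Tnni1 and Tnnt1 run from 37.3 to 405 CPM and the liver genes from 6.12 to 525 CPM, while the ovarian and germ cell lists hardly spread.

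Some members share their locus with another gene. On NCBIM37, the build named mm9 in the submitters' processing notes, exons of 8 of the 34 members overlap a gene on the opposite strand: Myh1, Myh2, Myl4, Tnnc2, Ttn, Mybph, Ckm and Atp2a1. The strand setting of the counting is not given in the sources used here, so reads of these members and of their partners may not be told apart. Of the members whose promoters are shown, none had such a partner, and they lie at chr11:66891802-66915793 (Myh3, plus strand), chr2:113873018-113879284 (Actc1, minus), chr8:126415669-126418651 (Acta1, minus), chr1:137679642-137707566 (Tnni1, plus) and chr1:136186581-136189124 (Myog, plus).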

How the data were processed

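Ovary RNA of 2 mutant and 2 wild-type libraries was sequenced by the authors on an Illumina HiSeq. Per the submitters' processing notes, reads were aligned to mm9 with STAR 2.6.1d, and the authors used DESeq2. The deposited table holds raw counts of reads per gene, made by the authors with summarizeOverlaps. Annotation and strand setting are not given in the sources used here. Counts were used as deposited, and 0 columns were left out. Libraries were grouped by their labels, and their totals ranged from 11036313 to 17869840 counts.

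The members and lists were chosen with earlier results of these data known. All 34 members are named, those with at least 30 counts over the 4 libraries with each count. Of each other list, genes past the threshold were to be named and up to 5 of the most abundant others, and for most lists only sums are given. Levels are CPM scaled by trimmed means of M values (TMM). The genotype effect was fitted with edgeR 4.0.16 in R 4.3.3 (quasi-likelihood, genotype only, filterByExpr, Benjamini-Hochberg threshold 0.05). Ratios within a replicate used a prior count of 2 and have no test, and their intervals condition on the summed count of both libraries. Alternatives were other size factors (RLE), no filter, DESeq2 1.42.0, replicate number as a block, a prior count of 0.5 and each library left out. The fit was also run on data simulated without a difference between replicate numbers, with changes set in well-counted genes only. That run does not show how the fit behaves with replicate differences or for members with few counts. Counts of replicates were compared by chi-square over the genes tested. Divided by its degrees of freedom it was 12.3 for the mutant and 14.2 for the wild-type pair, so neither pair held copies of 1 library.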

Additional observations from a re-analysis of the deposited data

How the results depend on the processing

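The medians within replicates kept their direction under other size factors, another prior count and no filter, and the signs of the 27 fitted muscle genes under other size factors, no filter and DESeq2. The 9 genes called over the whole table became 28 with no filter and 105 with DESeq2, and 4 to 130 with a library left out, the lowest without wild-type replicate 2 and the highest without mutant replicate 1. Muscle genes called numbered 0 to 1 with a library left out, the call being Myh3 without wild-type replicate 2, and other skeletal muscle genes called numbered 0 to 1, the call coming without mutant replicate 1. The muscle genes' median log2 fold change ranged from -2.39 without mutant replicate 1 to 0.53 without wild-type replicate 1, and was -2.29 without wild-type replicate 2. Leaving out wild-type replicate 1 reversed 19 of 25 fitted muscle genes, mutant replicate 2 reversed Myl1 and Myog, and wild-type replicate 2 reversed Tnnt1. With a library left out, its replicate number stays on the side of the other genotype only, so genotype and replicate number are mixed. With libraries left out, the log2 fold change ranged from -5.05 to 1.25 for Myh3, -4.995 to 1.28 for Actc1, -4.74 to 0.78 for Acta1, -1.36 to 0.044 for Myh1, -1.23 to 0.56 for Myh4, -1.63 to 1.12 for Myl1, -2.35 to 1.64 for Myl4, -2.42 to 0.39 for Mylpf, -0.015 to 0.31 for Tnnt1, -2.85 to 1.28 for Tnnt2, -1.66 to 0.44 for Tnnt3, -3.46 to 0.80 for Tnnc1, -4.06 to 0.53 for Tnnc2, -3.63 to 0.71 for Ttn, -1.32 to 0.085 for Mybpc1, -3.31 to 0.84 for Mybph, -2.98 to 1.08 for Myod1, -2.03 to 1.28 for Myog, -2.64 to 0.24 for Atp2a1 and -2.35 to 0.15 for Klhl41. With the replicate number as a block, 385 genes were called (180 higher and 205 lower, 2.49% of those tested). Among them were 10 muscle genes, all lower (Myh3, Actc1, Acta1, Myh7, Mylpf, Tnnc1, Tnnc2, Ttn, Neb and Casq2). Within replicate 2, only Actc1, Acta1, Myh7 and Neb of the 10 had a counting interval below equality. Myh3 had a log2 ratio of 0.03 there. The blocked fit gives each gene 1 change for both replicates, so a call does not show a difference within each. The calls also held 3 other skeletal muscle genes (Myom2, Tpm2 and Vgll2). The labels share replicate numbers, and in the column names libraries of the same number carry consecutive library IDs, but no source says what a number stands for. Deviations of same-numbered libraries correlated at 0.481 across genes, and the block leaves 1 residual degree of freedom. The cause of these changes was not tested. Depth limits members under 30 counts, and a group of 2 libraries limits all tests.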
